A study of Rattus norvegicus with 20 samples.

Results

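The genes described here encode subunits of the mitochondrial respiratory chain and ATP synthase, measured in the red part of the tibialis anterior, a hindlimb muscle, of rats. They were taken by symbol: NADH dehydrogenase subunits (Ndufa, b, c, s and v), succinate dehydrogenase (Sdha to Sdhd), the cytochrome bc1 complex (Uqcr and Cyc1), cytochrome c (Cycs), cytochrome c oxidase (Cox4 to Cox8) and ATP synthase (Atp5). The symbols found 84 genes of the 14557 genes that had a table entry carrying a single symbol. Of these, 65 encode subunits (26 of complex I, 4 of complex II, 6 of complex III, 15 of complex IV and 14 of ATP synthase), 16 were classed by their symbols as copies or pseudogenes of subunits, and 3 are related proteins. RefSeq annotates 10 of the 16 as protein-coding, 5 as pseudogenes and 1 as a transcribed pseudogene. A further 11 matching symbols, among them Cycs, Cox5a, Cox7a2, Uqcrb, Ndufa10 and Ndufs5, occurred only in entries that carry several symbols, and no value is given for them. No entry carried Ndufs1 or Cox7a1 alone. Genes of mitochondrial DNA and assembly factors lie outside the symbols.

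All 20 arrays came from male rats, with 1 array per rat and 5 rats in each of 4 groups. The labels place every group under the ZDF (Zucker diabetic fatty) name, the lean controls included, and give the strain as Zucker. Lean control rats received standard chow, and obese rats received a stock diet for 6 weeks. The third group is labelled rosiglitazone, a diabetes drug that activates the nuclear receptor PPARgamma, and the fourth resveratrol, a polyphenol from plants. The labels state neither the genotype of the treated rats nor a dose, a duration of treatment or an age, so the treated groups are described against both the obese and the lean group. Obese ZDF rats carry a defective leptin receptor in every tissue, and the labels name another diet for the lean rats, so that body weight, diet and genotype cannot be told apart in these comparisons.

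The respiratory chain passes electrons from NADH, through complex I, and from succinate, through complex II, to ubiquinone, and then through complex III, cytochrome c and complex IV to oxygen. The protons pumped on the way drive ATP synthase. Red muscle is rich in oxidative fibres and relies on this pathway, and complex IV in muscle contains subunit isoforms that differ from those of most other tissues.

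All values are log2 values from the RMA procedure, and a log2 fold change is the difference between 2 group means. A gene was called where the adjusted p was under 0.05 in limma, with the adjustment over all 14557 genes. The 8 defining genes measured of skeletal muscle had means between 10.1 and 11.2, well above the medians of the arrays (2.46 to 2.55), and the correlation between arrays of the same group ranged from 0.964 to 0.974. Of the 65 subunits, 59 had a mean of at least 4. The 6 below were Atp5f1c (3.44), Cox4i2 (3.69), Cox6b1, Cox6b2, Cox7b2 and Cox8c. For these 6, low expression and poor detection by the array cannot be told apart. They enter the counts and medians given for subunits, except where a mean of at least 4 is stated. Of the 16 copies, 12 lay under 4, and signal of a copy and of its parent gene cannot be told apart where they share sequence. Subunits varied little within groups. Their median residual SD was 0.128 log2 units, against 0.222 over all genes, and 0.121 against 0.179 where only genes with a mean of at least 4 were taken.

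No subunit was called between obese and lean rats, between resveratrol and obese rats, or between rosiglitazone and obese rats. In rosiglitazone against lean control, Ndufs4 and Ndufb6, both accessory subunits of complex I, were called lower. They were 2 of the 84 members. Of all genes, 3.5% were called in that comparison, and 1.83% of all genes were called lower. Most of the other subunits of complexes I, II and III had small negative log2 fold changes in rosiglitazone against obese, whereas those of complex IV were of both signs.

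The promoters of the called genes and of the complex IV isoforms Cox6a2, Cox8a and Cox8b are shown, since they are described in detail below, with Sdhb of complex II as an example that held 2 kinds of motif. The sequences are RefSeq's, from build GRCr8, and run 5′ to 3′ from 250 bases before to 50 bases after the annotated start. Capitals mark matches to 4 motifs: GCGCANGCG (NRF1), CCGGAAG (the core bound by ETS factors such as GABPA), TNAAGGTCA (ERR receptors) and AANATGGCG (YY1), read on both strands. NRF1 matches on opposite strands overlapped in 3 promoters not shown, and matches to different motifs did not overlap.
Ndufs4, chr2:47794865-47795164 (-): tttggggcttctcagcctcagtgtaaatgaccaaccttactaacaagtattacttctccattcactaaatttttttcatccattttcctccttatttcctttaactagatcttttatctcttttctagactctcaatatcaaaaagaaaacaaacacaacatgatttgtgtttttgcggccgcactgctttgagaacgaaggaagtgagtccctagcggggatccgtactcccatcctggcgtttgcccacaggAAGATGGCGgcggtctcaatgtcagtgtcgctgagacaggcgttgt
Ndufb6, chr5:60206103-60206402 (-): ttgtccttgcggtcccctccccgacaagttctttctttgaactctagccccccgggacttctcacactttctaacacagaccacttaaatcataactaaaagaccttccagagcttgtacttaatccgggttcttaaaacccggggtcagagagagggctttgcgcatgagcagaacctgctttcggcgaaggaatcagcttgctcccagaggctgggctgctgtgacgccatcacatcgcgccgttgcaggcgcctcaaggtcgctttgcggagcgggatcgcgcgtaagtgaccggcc
Sdhb, chr5:158547684-158547983 (+): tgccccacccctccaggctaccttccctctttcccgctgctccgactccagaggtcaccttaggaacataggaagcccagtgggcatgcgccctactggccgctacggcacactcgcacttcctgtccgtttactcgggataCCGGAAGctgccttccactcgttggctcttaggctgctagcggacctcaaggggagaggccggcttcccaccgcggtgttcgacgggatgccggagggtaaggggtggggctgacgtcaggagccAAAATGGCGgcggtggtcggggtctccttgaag
Cox6a2, chr1:192219667-192219966 (-): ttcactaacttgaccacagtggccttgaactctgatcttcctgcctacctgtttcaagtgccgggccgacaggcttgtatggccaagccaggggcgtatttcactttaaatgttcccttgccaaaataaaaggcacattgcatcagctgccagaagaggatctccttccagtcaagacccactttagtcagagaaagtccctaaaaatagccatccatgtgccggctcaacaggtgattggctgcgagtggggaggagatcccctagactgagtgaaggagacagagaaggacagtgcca
Cox8a, chr1:213833574-213833873 (-): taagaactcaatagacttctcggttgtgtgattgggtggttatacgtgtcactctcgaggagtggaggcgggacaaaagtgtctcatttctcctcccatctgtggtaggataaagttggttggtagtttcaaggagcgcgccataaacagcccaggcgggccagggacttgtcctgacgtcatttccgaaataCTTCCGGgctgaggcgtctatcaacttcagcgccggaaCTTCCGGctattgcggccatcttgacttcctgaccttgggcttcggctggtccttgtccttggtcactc
Cox8b, chr1:205408224-205408523 (-): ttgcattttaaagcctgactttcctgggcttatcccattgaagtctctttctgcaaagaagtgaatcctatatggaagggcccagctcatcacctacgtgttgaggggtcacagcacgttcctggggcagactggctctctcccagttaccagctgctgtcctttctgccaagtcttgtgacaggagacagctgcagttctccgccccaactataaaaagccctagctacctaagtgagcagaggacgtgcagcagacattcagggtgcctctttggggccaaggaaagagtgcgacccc
Ndufs4 held a YY1 match and Cox8a a pair of ETS matches. The windows of Ndufb6, Cox6a2 and Cox8b held none of these letters, which says nothing of the factors themselves.

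A promoter window was found for 59 of the 65 subunits. The NRF1 motif was present in 16 of them (27.1%), against 5.8% of all 33469 promoters of the same length. The ETS core was present in 17 (28.8%, against 8.75%), the YY1 motif in 14 (23.7%, against 3.01%) and the ERR motif in 3 (5.08%, against 1.2%). At least 1 of the 4 motifs occurred in 38 of the 59 (64.4%), against 16.5% of all promoters. The subunit promoters were richer in G and C (median 55.7% against 51.7%). By complex, a motif was found in 16 of 25 promoters of complex I, 3 of 4 of complex II, 4 of 5 of complex III, 11 of 13 of ATP synthase and 4 of 12 of complex IV. No promoter of complex IV held the NRF1 letters. Of the 14 YY1 matches, 12 lay at or after the annotated start. None of the 6 copies with a window held any of the motifs.

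**Figure D1:**
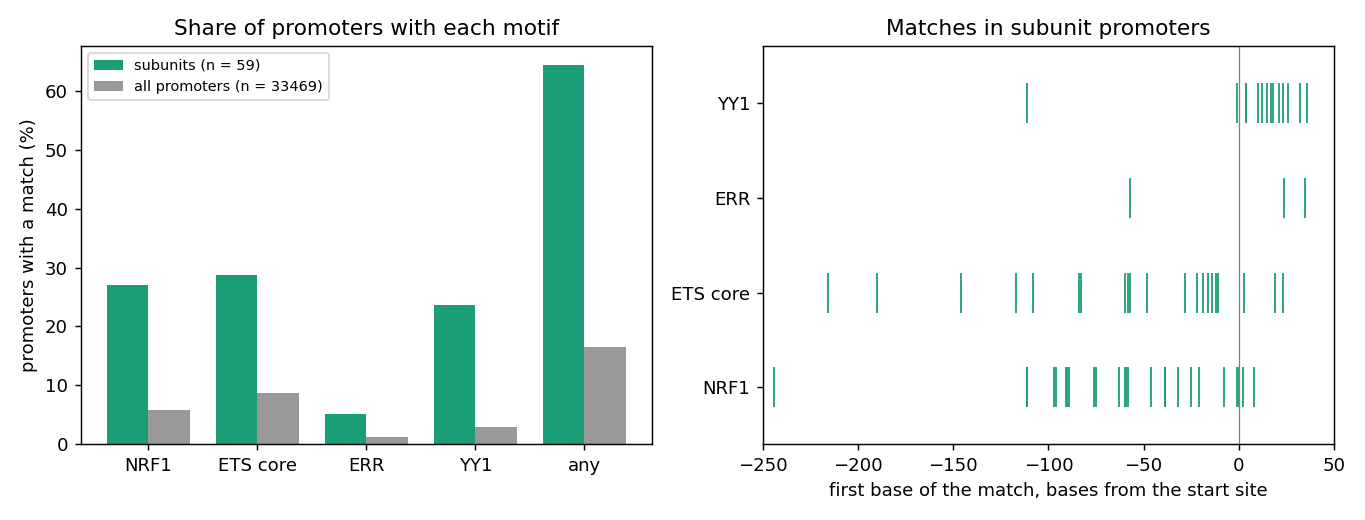
Left, percentage of promoter windows with a match to each motif, for the 59 subunits and for all 33469 promoters. Right, the position of each match in the subunit promoters, in bases from the annotated start; YY1 matches gather just after the start, with 12 of 14 at or after it.

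Complex I takes electrons from NADH. Ndufs4, an accessory subunit of the arm that binds NADH and a gene in which human mutations cause Leigh syndrome, had the smallest adjusted p of the members. Its values in the lean rats were 8.08, 8.13, 8.14, 8.18 and 8.10, and in the obese rats 7.94, 7.81, 7.72, 7.80 and 7.77. The rosiglitazone rats had 7.69, 7.70, 7.82, 7.55 and 7.72, and the resveratrol rats 8.04, 7.89, 7.94, 7.93 and 8.01. Every lean array lay above every array of the other 3 groups, and every rosiglitazone array lay below every resveratrol array. In the rosiglitazone rats Ndufs4 fell by 0.43 on the log2 scale against lean control (SE 0.08, n = 5 in each group, adjusted p = 0.00286 in limma), a lean level 1.35 times that of rosiglitazone. The log2 fold change was -0.31 (SE 0.08) in obese against lean control, with an adjusted p of 0.159 in limma. Its value was -0.16 (SE 0.08) in resveratrol against lean control and -0.26 (SE 0.08, adjusted p = 0.101 in limma) in rosiglitazone against resveratrol. In rosiglitazone against obese it was -0.11 (SE 0.08). The order of the means was thus lean, resveratrol, obese and rosiglitazone, in which the neighbours resveratrol and obese, and obese and rosiglitazone, overlapped, and no pair of neighbours was called different.

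Ndufb6, an accessory subunit of the membrane arm, had values of 6.32, 6.54, 6.42, 6.30 and 6.32 in lean rats and of 6.12, 5.98, 6.02, 6.22 and 6.00 in obese rats. The rosiglitazone rats had 6.08, 5.96, 6.30, 5.53 and 5.79, and the resveratrol rats 6.02, 5.82, 6.21, 6.25 and 6.03. The lean arrays again lay above all others, although the highest rosiglitazone array came within the rounding of the lowest lean one. Between lean and rosiglitazone rats Ndufb6 fell by 0.45 (SE 0.12, n = 5 in each group, adjusted p = 0.0404 in limma). The call was lost without rosiglitazone replicate 2, 4 or 5 (adjusted p = 0.0574, 0.119 and 0.1005 in limma) and without any single lean array (0.0581 to 0.0872). The log2 fold changes of Ndufb6 in obese and in resveratrol against lean control were both -0.31 (SE 0.12), with adjusted p of 0.350 and 0.443 in limma. These comparisons share the lean arrays.

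Among the other complex I subunits none was called. Ndufb9, a second accessory subunit of the membrane arm, was 9.87, 9.95, 9.94, 9.94 and 9.88 in lean rats and 9.67, 9.65, 9.77, 9.55 and 9.70 in rosiglitazone rats, with no overlap. It had -0.25 (SE 0.08, adjusted p = 0.0803 in limma) against lean and -0.19 (SE 0.08, adjusted p = 0.269) against obese, where the arrays did not overlap either. Ndufv2, a core subunit with an iron-sulphur cluster, lay at 9.03 to 9.16 in rosiglitazone rats and at 9.24 to 9.41 in obese rats. Ndufv1, the core subunit that binds NADH, had a log2 fold change of -0.12 (SE 0.11) in rosiglitazone against obese. The other direction was seen in Ndufs6, an accessory subunit, with 0.22 (SE 0.12) against obese and 0.35 (SE 0.12, adjusted p = 0.123 in limma) against lean. Ndufa2 had the lowest log2 fold change of the complex I subunits against obese, -0.44, but with an SE of 0.23. In rosiglitazone against obese, 24 of the 26 complex I subunits had a negative log2 fold change, and their median was -0.13 against a median of 0.00 over all genes.

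**Figure D2:**
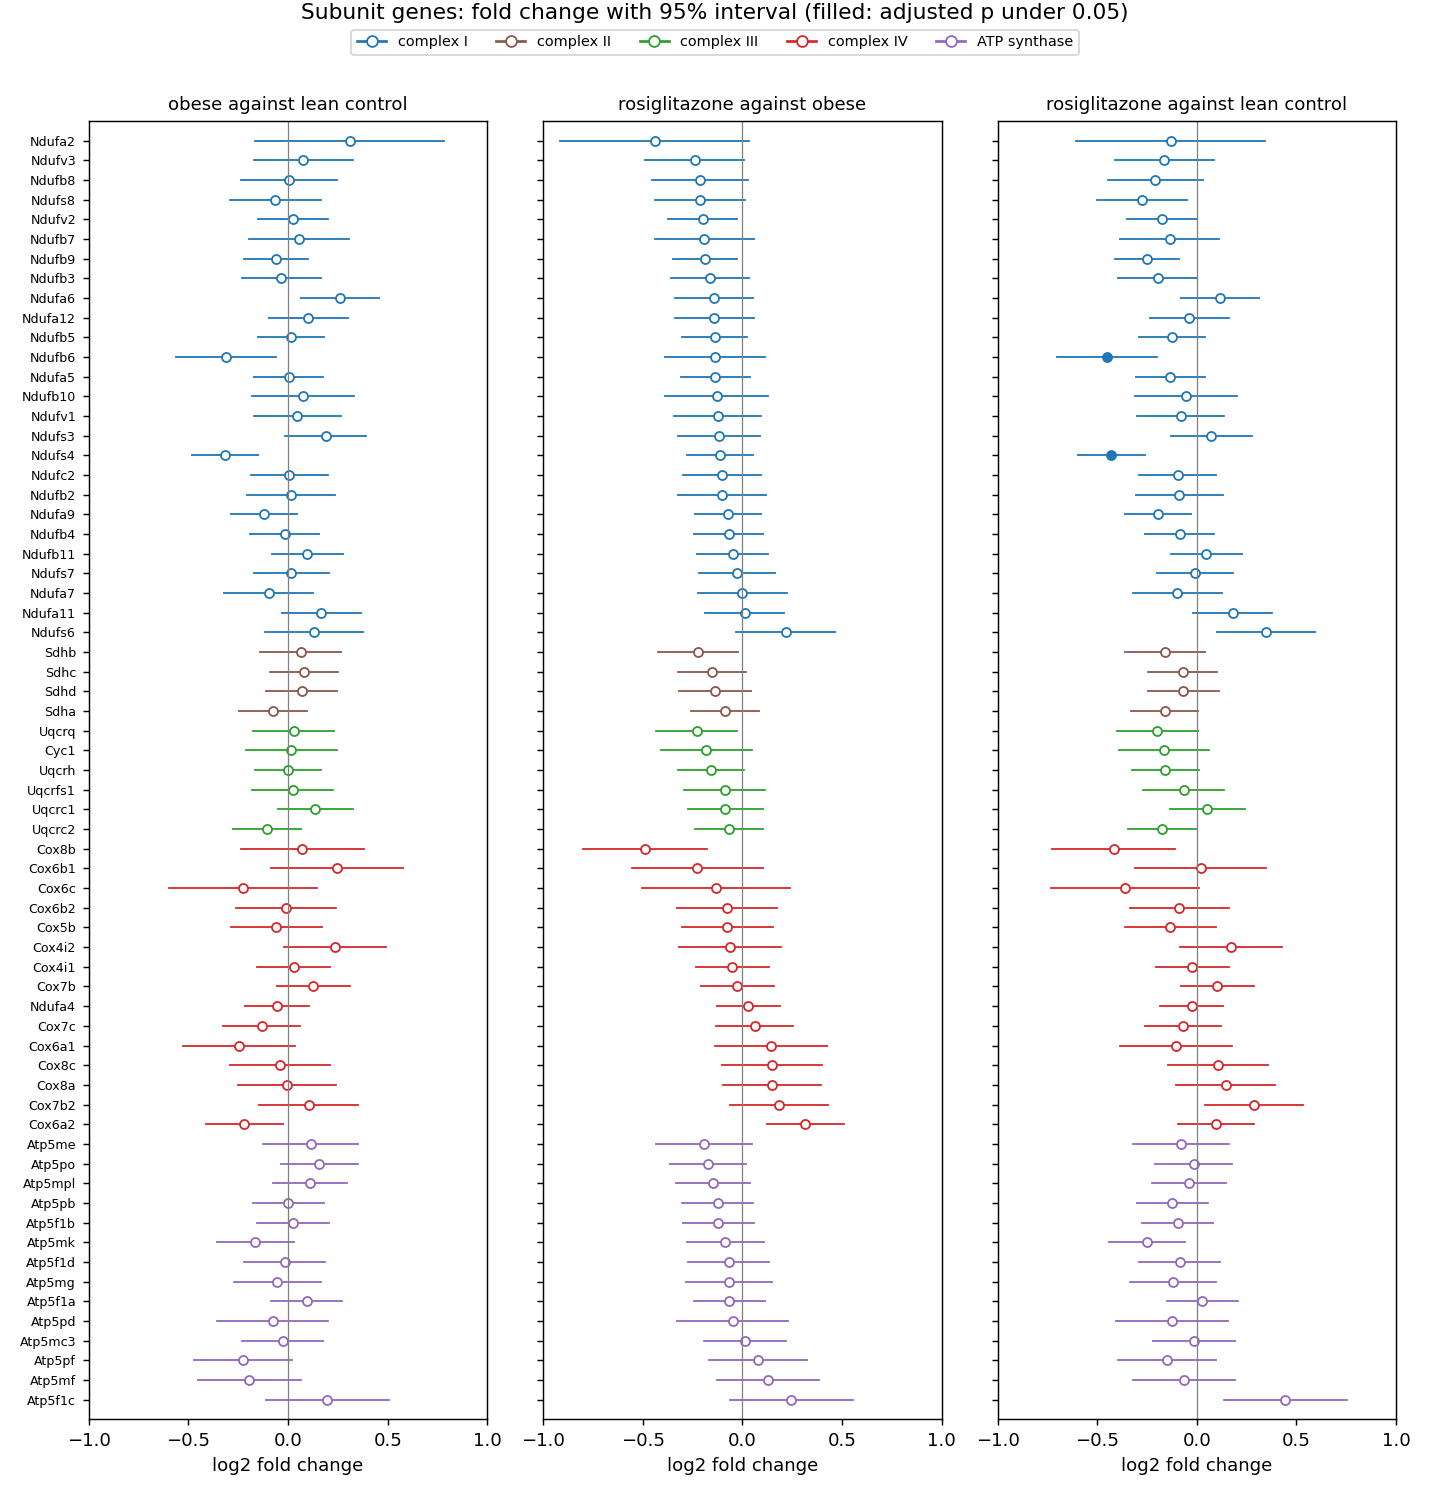
Log2 fold change of each of the 65 subunit genes (points) with its 95% interval (lines) in 3 comparisons, grouped by complex and ordered within a complex by the change in rosiglitazone against obese. Filled points mark an adjusted p under 0.05, which only Ndufs4 and Ndufb6 reached, in rosiglitazone against lean control.

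Complex II oxidises succinate and links the citric acid cycle to the chain. Sdhb, its iron-sulphur subunit, was 8.97, 8.997, 8.92, 8.91 and 9.20 in obese rats and 8.83, 8.84, 8.85, 8.80 and 8.57 in rosiglitazone rats. The groups did not overlap, and the log2 fold change was -0.22 (SE 0.10, adjusted p = 0.302 in limma). The membrane anchor Sdhc was likewise lower in every rosiglitazone array than in any obese array, the log2 fold change being -0.15 (SE 0.08, adjusted p = 0.445). Sdhd, the other anchor, had -0.14 (SE 0.09) and Sdha, the flavin-binding subunit, -0.09 (SE 0.08), both with overlapping arrays. The mean deviation of the 4 subunits lay between 0.0235 and 0.151 in the obese arrays and between -0.195 and -0.0190 in the rosiglitazone arrays. In resveratrol rats it ranged from -0.150 to 0.0707, which spans both.

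Complex III passes electrons from ubiquinol to cytochrome c. Uqcrq, a small membrane subunit, was 7.65, 7.50, 7.57, 7.54 and 7.73 in obese rats and 7.47, 7.41, 7.39, 7.28 and 7.29 in rosiglitazone rats. The arrays did not overlap, the log2 fold change being -0.23 (SE 0.10, adjusted p = 0.295 in limma). The catalytic subunits Cyc1 (cytochrome c1) and Uqcrfs1 (the Rieske protein) had -0.18 (SE 0.11) and -0.09 (SE 0.10). Uqcrc1 and Uqcrc2, the core proteins, had -0.09 (SE 0.09) and -0.07 (SE 0.08). Uqcrh, the hinge protein, lay at 8.92 to 9.04 in the rosiglitazone rats, below the lean range of 9.07 to 9.30 (log2 fold change -0.16, SE 0.08, adjusted p = 0.350 in limma). All 6 subunits had a negative log2 fold change against obese (median -0.12). Their mean deviation was at most -0.00872 in the rosiglitazone arrays and at least 0.00474 in the obese arrays.

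Complex IV reduces oxygen. Its subunits did not share a direction: 8 of 15 had a negative log2 fold change in rosiglitazone against obese (median -0.03). Of the 15, 10 had a mean of at least 4. The signs of the dim Cox4i2, Cox6b1, Cox6b2, Cox7b2 and Cox8c rest on low signal, and these genes enter every median and array mean given for complex IV. Cox6a2, the isoform of heart and skeletal muscle, was 9.36, 9.20, 9.42, 9.24 and 9.47 in obese rats and 9.69, 9.72, 9.68, 9.38 and 9.80 in rosiglitazone rats. Of the rosiglitazone arrays, 4 lay above all obese arrays and replicate 4 lay within them. The log2 fold change was 0.32 (SE 0.09, adjusted p = 0.0869 in limma). Without rosiglitazone replicate 4 it was 0.38 and passed the threshold (adjusted p = 0.0280 in limma). In lean rats Cox6a2 ranged from 9.47 to 9.67, and the log2 fold change of obese against lean was -0.22 (SE 0.09, adjusted p = 0.395 in limma). The partner of most other tissues, Cox6a1, had 0.14 (SE 0.14) in rosiglitazone against obese.

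Cox8b, the muscle isoform of subunit 8 in rodents and also a marker of brown fat, was 7.64, 7.96, 7.79, 7.93 and 8.25 in obese rats. In rosiglitazone rats it was 7.26, 7.71, 7.05, 7.55 and 7.55. Only rosiglitazone replicate 2 reached into the obese range, and the log2 fold change was -0.49 (SE 0.15, adjusted p = 0.102 in limma). Cox8a, the isoform of most tissues, had 0.15 (SE 0.12) in the same comparison. In rosiglitazone against resveratrol, Cox8a had 0.39 (SE 0.12, adjusted p = 0.103 in limma) and Cox6a1 0.34 (SE 0.14, adjusted p = 0.263). In resveratrol against lean control, Cox6a1 had -0.44 (SE 0.14, adjusted p = 0.345) and Cox7c, a small subunit, -0.26 (SE 0.09, adjusted p = 0.394). The muscle isoforms Cox6a2 and Cox8b thus had opposite signs in rosiglitazone against obese, and in the fit described above neither was called over all 14557 genes. With trend and robust variance moderation over the same genes Cox6a2 passed (adjusted p = 0.00940 in limma) and Cox8b did not. When only the 4979 genes with a mean of at least 4 were tested, both passed (adjusted p = 0.0212 and 0.0425 in limma).

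**Figure D3:**
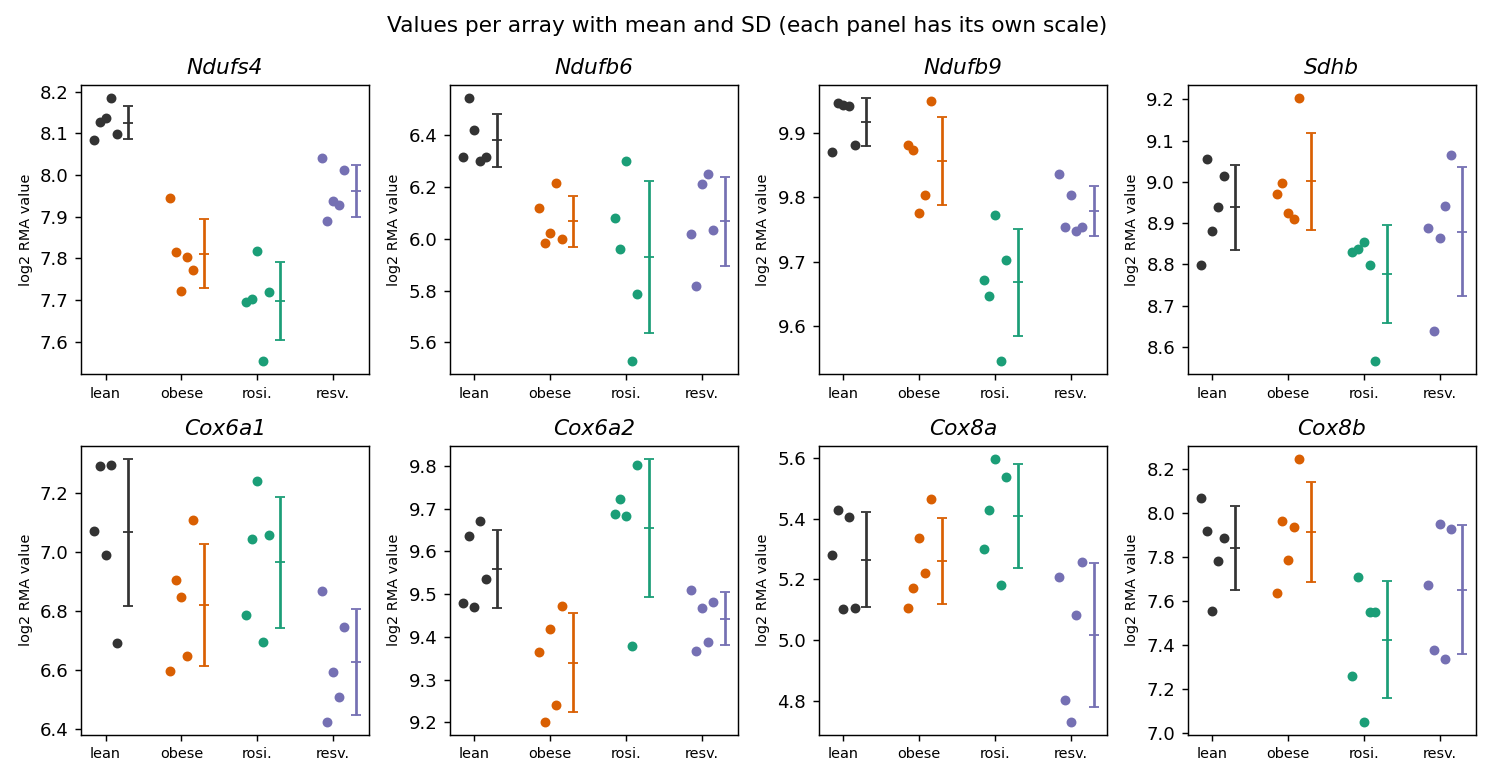
Log2 value of 8 subunit genes on each array (points), by group, with the group mean and SD (n = 5 arrays in each group). Every lean array exceeded every other array for Ndufs4 and Ndufb6, and 4 of 5 rosiglitazone arrays exceeded the obese arrays for Cox6a2.

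Cox4i1, the main isoform of subunit 4, had a log2 fold change of -0.05 (SE 0.09) in rosiglitazone and -0.17 (SE 0.09) in resveratrol against obese. Cox4i2, known from lung and from hypoxia, had -0.28 (SE 0.12) in resveratrol against obese at a mean under 4. Ndufa4, named for complex I but found in complex IV, had 0.03 (SE 0.08) in rosiglitazone against obese, and its paralogue Ndufa4l2 0.02 (SE 0.16). Cox7a2l, which joins complexes into supercomplexes, had -0.09 (SE 0.10).

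ATP synthase uses the proton gradient. Its catalytic subunits Atp5f1b (beta) and Atp5f1a (alpha) had log2 fold changes of -0.12 (SE 0.09) and -0.07 (SE 0.09) in rosiglitazone against obese. Of the 14 subunits, 10 were negative there (median -0.07). Atp5mk, a small membrane subunit that helps the enzyme form dimers, was 9.79, 9.93, 9.81, 9.81 and 9.90 in lean rats and 9.63, 9.59, 9.70, 9.73 and 9.76 in obese rats. Those groups did not overlap, yet the log2 fold change was -0.16 (SE 0.09, adjusted p = 0.547 in limma). Between rosiglitazone and lean rats Atp5mk had -0.25 (SE 0.09, adjusted p = 0.163). Atp5if1, the protein that inhibits the enzyme when it runs in reverse, had -0.29 (SE 0.11, adjusted p = 0.621) in resveratrol against obese and -0.21 (SE 0.11) in rosiglitazone against obese.

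Over all members, obese against lean control had 0 members called by limma, with 0.00687% of all genes called. At an unadjusted p under 0.05 there were 5 members, against 10.8% of all genes. The arrays did not overlap for 4 members (Ndufs4, Ndufb6 and Atp5mk lower, Ndufs3 higher), against 2.36% of all genes. The median log2 fold change of the members was 0.02, against -0.01 over all genes. For 63 of the 65 subunits the 95% interval lay within a 1.5-fold change in either direction, so a larger difference was not within the interval for those genes. Ndufs3, a core subunit of complex I, lay between 6.80 and 6.96 in lean and between 7.02 and 7.12 in obese rats, and its log2 fold change was 0.19 (SE 0.10, adjusted p = 0.506 in limma).

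Rosiglitazone against obese had 0 members called by limma, with 1.94% of all genes called, and 9 members at an unadjusted p under 0.05, against 13.6% of all genes. The arrays did not overlap for 6 members (Ndufb9, Ndufv2, Sdhb, Sdhc, Uqcrq and the copy Atp5mc2l1), against 3.59% of all genes. All 6 were lower in rosiglitazone rats, against 1.28% of all genes without overlap in that direction. At a mean of at least 4, 5 of 59 subunits and 107 of 4979 genes were lower without overlap. Of the 84 members, 65 had a negative log2 fold change (median -0.10), against 7427 of 14557 genes (median 0.00). The 95% interval lay within 1.5-fold for 63 of the 65 subunits. The members are correlated across arrays, so their shared sign is a description and not so many separate results.

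Resveratrol against obese had 0 members called by limma and 0% of all genes called. At an unadjusted p under 0.05 there were 4 members, against 7.41% of all genes, and 0 members had arrays that did not overlap, against 1.28% of all genes. The median was -0.05, and 57 of 84 members were negative, against 7214 of 14557 genes (median 0.002). Complex IV had a median of -0.13, with 9 of 15 subunits negative. For 64 of the 65 subunits the interval lay within 1.5-fold. Atp5mf, a subunit of the membrane part of ATP synthase, had the highest log2 fold change of its complex, 0.25 (SE 0.12, adjusted p = 0.676 in limma).

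Rosiglitazone against resveratrol had 0 members called by limma, with 2.04% of all genes called. At an unadjusted p under 0.05 there were 5 members (Cox6a1, Cox6a2 and Cox8a higher, Ndufs4 and the copy Ndufb4l4 lower), against 13% of all genes. Ndufs4 was the 1 member whose arrays did not overlap, against 3.67% of all genes. Here complex IV subunits had a median of 0.11 and complex I subunits one of -0.10.

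Rosiglitazone against lean control had the 2 calls given above. There were 15 of 84 members at an unadjusted p under 0.05 (17.9%, against 15.9% of all genes), and 7 had arrays that did not overlap, against 5.04% of all genes. These 7 were Ndufs4, Ndufb6, Ndufa9, Ndufb9, Ndufv2 and Uqcrh, which were lower, and the dim copy Atp5mc1l2, which was higher. Where only genes with a mean of at least 4 were taken, 16.9% of the 59 subunits had an unadjusted p under 0.05. The share was 26.5% of the 4979 such genes. Arrays did not overlap for 6 of these 59 subunits and for 524 of the 4979 genes. The median over the members was -0.08, with 62 of 84 negative, against 7356 of 14557 genes (median -0.003). At a mean of at least 4, 49 of 59 subunits (median -0.10) and 2870 of 4979 genes (median -0.04) were negative there. Resveratrol against lean control had 0 members called by limma, with 0.0137% of all genes called, 7 members at an unadjusted p under 0.05 against 8.63%, and 6 without overlap against 1.82%. Those 6 were Ndufs4, Ndufb6, Ndufb9 and Cox7c, which were lower, and the copies Atp5mc1l2 and Ndufb4-ps9, which were higher. The comparisons share arrays and are therefore not independent of each other. At a mean of at least 4, arrays did not overlap for 4 of 59 subunits in obese against lean control (202 of 4979 genes). The numbers were 5 (298 genes) in rosiglitazone against obese and 4 (169 genes) in resveratrol against lean control. They were 1 (372 genes) in rosiglitazone against resveratrol and 0 (73 genes) in resveratrol against obese.

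The arrays themselves showed how closely the subunits moved together. After removal of the group means, the first principal component held 29.3% of the variance of the 59 brighter subunits, and 57 of them had the same sign on it. A few arrays weighed most: the largest scores were those of resveratrol replicates 2 (-1.55) and 5 (1.14), then obese replicate 5 (0.82). Over the 4979 genes with a mean of at least 4 the first component held 19.0%. Within a complex it held 59.1% for complex III, 54.6% for complex II, 41.0% for complex IV, 37.3% for complex I and 36.2% for ATP synthase. A smaller set gives a larger share by construction, and this holds for 59 subunits against 4979 genes too. Resveratrol replicate 2 was the lowest array, with 11 of 65 subunits above their own 20-array mean and a mean deviation of -0.154. Obese replicate 5 was the highest, with 52 of 65 above and a mean deviation of 0.138. In the other resveratrol arrays the mean deviation was between -0.00918 and 0.0768.

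**Figure D4:**
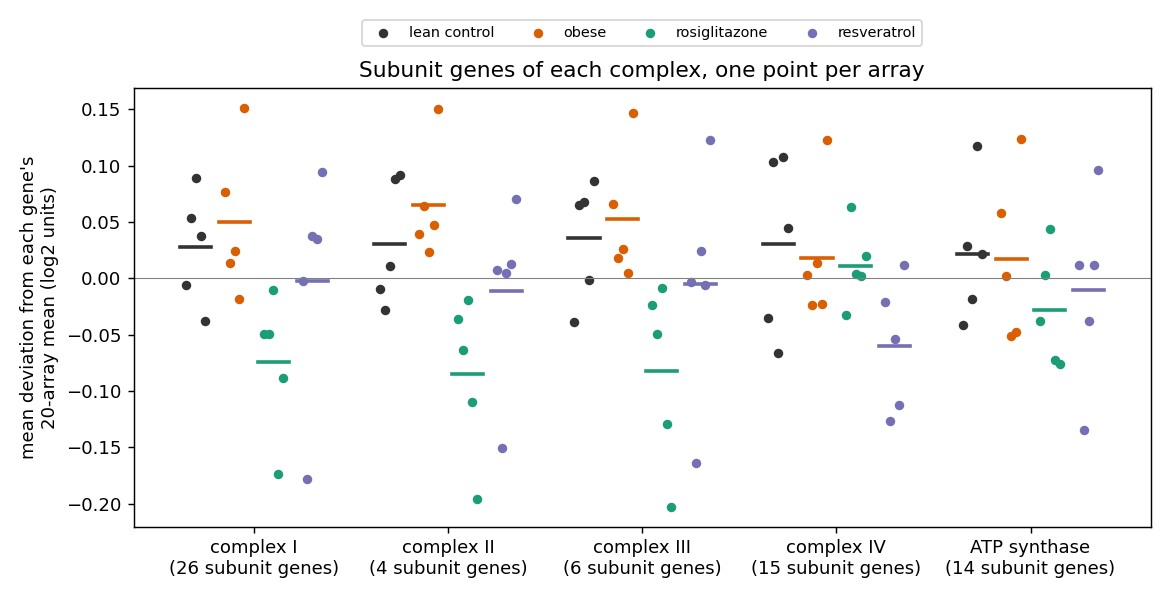
Mean deviation of the subunit genes of each complex from their 20-array means, in log2 units, for each array (points) with the group mean (bars). In complexes II and III every rosiglitazone array lies below every obese array, whereas in complexes I and IV and in ATP synthase the arrays of these groups overlap. Resveratrol replicate 2 lies low and obese replicate 5 high in most complexes.

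Markers of fibre type and of other cells were read on the same arrays. The muscle is a mixture of cells, and fewer cells of a type and less RNA per cell cannot be told apart in it. The 8 skeletal muscle markers differed little, with array means between -0.0733 and 0.101, and none was called by limma in any comparison (1 had an unadjusted p under 0.05 in obese against lean control, 0 in the others). The 8 slow fibre genes ranged from -0.472 to 0.433 in the obese arrays, with replicate 5 the highest, and from -0.133 to 0.408 in the lean arrays. Against lean control, 7 of these 8 had a negative log2 fold change in obese rats (median -0.35). The numbers were 7 in resveratrol rats (median -0.29) and 6 in rosiglitazone rats (median -0.24). Limma called none of them in these comparisons. The 7 fast fibre genes ranged from -0.167, in resveratrol replicate 2, to 0.133. In rosiglitazone against obese, where 1.94% of all genes were called, 5 of 9 adipocyte markers rose (their array means were 0.222 to 0.882 against -0.248 to -0.113), among them Fabp4, a fatty acid carrier, with a log2 fold change of 1.51, and Adipoq, the hormone adiponectin, with 1.51. Of 9 endothelial and pericyte markers 3 rose (array means 0.158 to 0.254 against -0.101 to 0.0275). Of 12 fibroblast and matrix markers 1, Col3a1, fell there, while all 12 were negative, and 8 of 12 fell in rosiglitazone against lean control, where 1.83% of all genes were called lower (array means -0.850 to -0.169 against 0.166 to 0.466). Without rosiglitazone, 10 of 12 were negative in obese against lean control (median -0.39), with 4 at an unadjusted p under 0.05 in limma. In resveratrol against lean control 9 of 12 were negative (median -0.29). None was called in these 2 comparisons. In rosiglitazone against lean control Cidea was the only 1 of 6 brown adipocyte markers called, and it rose. Of these 6, which include the member Cox8b, 2 were positive and 4 negative there (median -0.03). Slc4a1, of 2 erythroid markers, also rose there, and 2 of 2 were positive. In obese against lean control 2 of 2 erythroid markers were positive as well (median 0.42). Each had an unadjusted p under 0.05 in limma there, and none was called. Limma called none of 9 macrophage and leukocyte markers or 3 nerve and Schwann cell markers in any comparison (at most 3 and 1 had an unadjusted p under 0.05). The part of fibre type and of these other cells in the subunit values was not tested.

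Other genes of the pathway were counted by list. In rosiglitazone against lean control, 9 of the 105 genes of these lists were called (8.57%), against 3.5% of all genes, and 1.83% of all genes were called lower. Calls were more frequent among brighter genes. Of the 4979 genes with a mean of at least 4, 146 were called higher and 212 lower. The lists were not compared with genes of like brightness. Of 15 complex I assembly factors 2 fell, Ndufaf1 (by 0.42, SE 0.09, adjusted p = 0.0124 in limma) and Tmem126b (by 0.39 on the log2 scale). All 14 measured genes of the citric acid cycle were negative there, against 57.6% of the genes with a mean of at least 4. The 1 called was Dlat, a subunit of pyruvate dehydrogenase that feeds the cycle, which fell by 0.39 (SE 0.08, adjusted p = 0.00648 in limma). Of 27 other assembly factors 3 fell: Coa5 and Sdhaf2, which act in complexes IV and II, and Dmac2l, which is linked to ATP synthase. Of 18 genes of cristae, import and quality control 2 fell, the fusion protein Opa1 (by 0.37) and the import motor adaptor Timm44 (by 0.36).

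In rosiglitazone against obese, 1 of the 105 genes of these lists was called (0.952%, against 1.94% of all genes) and 16 had an unadjusted p under 0.05 (15.2%, against 13.6%), both near the share over all genes. No assembly factor or cycle gene was called, and 13 of 14 cycle genes were negative with a median of -0.11. The called gene was Sqor, which oxidises sulphide and passes its electrons to ubiquinone. It rose against both obese (0.69, SE 0.16, adjusted p = 0.0257 in limma) and lean rats (0.81, SE 0.16, adjusted p = 0.00577). None of the 17 regulators of mitochondrial genes was called by limma in any comparison, and 1 to 3 had an unadjusted p under 0.05. In rosiglitazone against obese 10 were positive and 7 negative, with a median of 0.02. Ppargc1a, a coactivator of mitochondrial genes, had a log2 fold change of 0.14 (SE 0.14) there, and Gabpa and Yy1, whose motifs were searched above, had 0.14 (SE 0.09) and 0.17 (SE 0.11). In rosiglitazone against resveratrol 3 of the 105 genes were called (2.86%, against 2.04% of all genes), Dlat, Ndufaf1 and Dmac2l, which fell by 0.31, by 0.35 and by 0.43. Of the 105 genes of these lists, limma called 0 in obese against lean control (14 had an unadjusted p under 0.05), 0 in resveratrol against lean control (8) and 0 in resveratrol against obese (5).

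The 16 copies were mostly dim and variable. Ndufb4l4 had the lowest log2 fold change of all members in rosiglitazone against obese (-0.84, SE 0.28, adjusted p = 0.137 in limma), at group means of 2.13 and 2.97, while Ndufb4l3, classed by its symbol as a copy of the same gene, had 0.64 (SE 0.26, adjusted p = 0.259). Without rosiglitazone replicate 3, Ndufb4l4 was called lower in rosiglitazone against obese (log2 fold change -1.10, adjusted p = 0.0260 in limma), against resveratrol (0.0258) and against lean control (0.0271). Atp5mc2l1, a copy of a subunit of the proton-carrying ring, was -0.34 (SE 0.13, adjusted p = 0.227).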

How the data were processed

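RNA from 20 frozen muscle samples (100 ng of total RNA each) was measured on Affymetrix arrays. The authors deposited log2 values from RMA, a procedure that subtracts background, brings the arrays to a common distribution and combines the probes of each transcript. Such summaries shrink differences of dim genes, and RMA assumes that most genes do not change. No depth applies to arrays, so their number limits the precision. Per the labels the arrays within each group are biological replicates. No strip layout is named, so no batch was examined.

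Entries with exactly 1 symbol in GEO's platform annotation were used (14824 of 36685), and a gene with several entries was represented by the brightest one, which left 14557 genes. A mean for each of the 4 groups was fitted in limma 3.58.1 (R 4.3.3), with moderated variances, 16 residual degrees of freedom, two-sided tests and Benjamini-Hochberg adjustment over all genes within each of the 6 comparisons. The procedure was tested on simulated data. Tables and figures used Python 3.11.15, pandas 2.3.3 and matplotlib 3.10.9. All 84 members matched RefSeq by gene ID, and promoter windows came from RefSeq (GRCr8).

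The members, gene lists and the rule for named genes were chosen with earlier results of these data known, so no p is given for a list. The rule named called members, the highest and lowest member of each complex in the 3 comparisons of obese with lean, rosiglitazone and resveratrol rats, the isoform pairs and core subunits, the members with the largest change among those without overlap, the products that are no subunits, and called genes of the other lists. Ndufa2, Ndufb9, Ndufv2, Ndufs6, Ndufa9, Uqcrh, Sdhd, Atp5mk, Atp5f1c, Cox6b2, Cox7b2, Ndufb4-ps9, Sdhaf2, Ppargc1a, Gabpa and Yy1, and the named cell type markers, were named after their values were seen. Alternatives covered variance moderation, filters, table entries, array weights, scaling, a replicate block and leaving out arrays.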

Additional observations from a re-analysis of the deposited data

Results flagged for a closer look

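Within groups of 5 arrays, 180 groups of values were examined for a single array that stood apart, and 11 did so by Dixon's criterion (critical value 0.71). Chance marks about 1 group in 20. In the rosiglitazone group, replicate 4 had Cox6a2 at 9.38 (the nearest of the others was 9.68) and the copy Uqcr11l1 at 2.33, and replicate 5 had Sdhb at 8.57 (nearest 8.80) and Uqcrc1 at 8.03 (nearest 8.29). In the resveratrol group, replicate 2 had Atp5mf at 4.61 (nearest 5.03) and the supercomplex factor Cox7a2l at 6.20 (nearest 6.55). This is the array with the lowest mean of the subunits.

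Among the obese rats, replicate 5 had the array mean of complex IV subunits at 0.122 (nearest 0.0132) and the copy Cox7cl1 at 2.42, and replicate 3 had the copy Ndufb4l4 at 3.65. Among the lean rats, replicate 1 had Uqcrc2 at 9.13 (nearest 9.31) and replicate 2 had Uqcr11l1 at 2.43. The reasons were not tested.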

How the results depend on the processing

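In rosiglitazone against lean control, Ndufs4 was called in all 21 alternatives run (adjusted p 6.21e-05 to 0.0267 in limma), and Ndufb6 in 10 of 21 (0.0120 to 0.119). Of the 21, 2 only left out members (those that are no subunits, or those with a mean under 4) and reused the main fit. In these 2 the adjusted p of Ndufs4 and Ndufb6 was the main one by construction, so they test nothing for these genes. Another alternative averaged the entries of each gene. Ndufs4 and Ndufb6 have 1 entry each, so their values and log2 fold changes could not differ there either. With trend and robust variance moderation the number of members called was 1 in obese against lean control (Ndufs4), 2 in rosiglitazone against obese (Cox6a2 and Ndufb9), 1 in rosiglitazone against resveratrol (Ndufs4) and 4 in rosiglitazone against lean control (Ndufs4, Ndufb6, Ndufb9 and Atp5mk). With only genes of a mean of at least 4 tested, which tests fewer genes, the numbers were 1 (Ndufs4), 2 (Cox6a2 and Cox8b), 2 (Cox8a and Ndufs4) and 5 (Ndufs4, Ndufb6, Ndufb9 and Atp5mk lower, Ndufs6 higher). In rosiglitazone against lean control the number was 1 with all entries of the table tested, and 1 with only the groups compared in the fit. Apart from the smaller number of genes tested, the cause of these shifts was not tested. Genes with a mean of at least 4 had a median log2 fold change of -0.05 in obese against lean control, against -0.01 over all genes.

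With the replicate number as a block, 1 member was called in rosiglitazone against lean control (Ndufs4, while Ndufb6 had an adjusted p of 0.0640) and 0 in the other comparisons, and the genes called in rosiglitazone against obese went from 282 to 218. The numbers do not pair the arrays: only 6 of 30 pairs with the same number deviated together with a correlation over 0.1 (range -0.38 to 0.15), and 1 of 20 arrays was closest to an array of its own number. When single arrays were left out, the members called ranged from 0 to 0 in obese against lean control, resveratrol against obese and resveratrol against lean control, from 0 to 1 in rosiglitazone against obese (Cox6a2 without rosiglitazone replicate 4, Ndufb4l4 without replicate 3) and in rosiglitazone against resveratrol, and from 1 to 3 in rosiglitazone against lean control. The median log2 fold change of the members then ranged from -0.01 to 0.04, from -0.12 to -0.08, from -0.08 to -0.03, from -0.06 to -0.02, from -0.10 to -0.06 and from -0.06 to -0.01, in the order obese against lean, rosiglitazone against obese, resveratrol against obese, rosiglitazone against resveratrol, rosiglitazone against lean and resveratrol against lean. No median moved by more than its spread between arrays (SD 0.0586) in any alternative, and no called value changed direction. In obese against lean control that SD exceeds the median itself (0.02), and the median changed sign when single arrays were left out. The criterion therefore does not test whether a median keeps its sign. Low signal limits the 19 members with a mean under 4.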
